A study of Mus musculus with 9 samples.

Results

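The immunoglobulin heavy chain constant genes Ighm, Ighd, Ighg3, Ighg1, Ighg2b, Ighg2c, Ighe and Igha encode the part of the antibody heavy chain that sets its class. These 8 genes were chosen by name, and each was found once among the 48795 gene IDs of the count files. All 8 passed the filter on low counts. The RNA came from mouse splenic follicular B cells selected on CD23, from C57BL/6 animals whose yy1 gene is floxed (yy1 f/f), and every library compared here carries those floxed alleles. The 3 tatcre libraries were from cells given TAT-CRE, a Cre recombinase fused to a peptide that enters cells, and the 3 mock libraries were from cells given a mock treatment. After that, both kinds of cells were cultured with LPS and IL-4, for 72 hours with 10% serum according to the series text and for 48 hours with 20% serum according to the sample text. No source used here gives the ages of the animals. The sample text names TAT-CRE for every sample, so groups follow the titles. The series text describes 3 mice whose cells were divided over the treatments, but no label ties a library to a mouse. The spread that a p-value here weighs is therefore the one among libraries, which may be partly technical. The comparison bears on the study's question of what YY1, a zinc finger transcription factor, does in B cell activation and class switching. TAT-CRE exposure and Yy1 loss went together in every library and cannot be told apart.

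A B cell starts by making IgM and IgD. Both come from transcripts that begin upstream of the same variable region and run into Ighm and Ighd, and the choice between them is made by RNA processing. In class switch recombination the enzyme AID, together with DNA repair, joins the region upstream of Ighm to the region upstream of another constant gene and removes the DNA between them. Before switching, a constant gene such as Ighg1 is transcribed from its own upstream promoter into a germline transcript that is not translated into antibody. In mouse B cells LPS favours germline transcription of Ighg3 and Ighg2b. IL-4 added to LPS favours Ighg1 and Ighe and holds back Ighg3 and Ighg2b, interferon gamma favours Ighg2c, and TGF-beta favours Igha. The deposited counts are per gene, so they do not separate germline transcripts, switched transcripts, and membrane or secreted forms. In bulk RNA, fewer cells that express a gene and less RNA per cell cannot be told apart either.

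The 8 genes lie in a row on chromosome 12, within 166.5 kb from the start of Igha to the end of Ighm in GRCm38, the assembly that mm10 stands for. The locus reads from high to low coordinates. Ighm (ENSMUSG00000076617) spans 113418826 to 113422730, and Ighd (ENSMUSG00000104213) follows 2.5 kb further on at 113407535 to 113416324. The widest gap, 46.3 kb, separates Ighd from Ighg3 (ENSMUSG00000076615, 113357442 to 113361232). Ighg1 (ENSMUSG00000076614) lies at 113326541 to 113330523, Ighg2b (ENSMUSG00000076613) at 113304314 to 113307933 and Ighg2c (ENSMUSG00000076612) at 113287389 to 113288932. Ighe (ENSMUSG00000087642, 113269263 to 113273248) and Igha (ENSMUSG00000095079, 113256204 to 113260236) end the row. RefSeq annotates each as a constant region gene, with a span that covers exons and introns together. Lengths of the transcripts were not available, so levels of different genes are not ranked against each other below. The gamma genes resemble each other closely in sequence and how reads with several positions were counted is not known, so their separate values carry that uncertainty.

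Yy1 (ENSMUSG00000021264, chromosome 12, 108792945 to 108820148), the targeted gene, had 24, 36 and 50 counts in the tatcre libraries and 2655, 3018 and 2542 counts in the mock libraries (log2 fold change -6.15, edgeR adjusted p = 1.7e-08). The libraries held 22729187 to 28230727 counts over genes, and the 8 constant genes together took 0.849 to 1.05% of them in tatcre and 0.89 to 1.09% in mock libraries. Levels are given as CPM, counts per 1000000 counts of the scaled library. All 9 markers of follicular B cells were detected and 5 of them were lower in tatcre cells. Over all tested genes 16.3% were called lower, and 25.6% of those of mean log2 CPM of at least 6. Among the 5 was Fcer2a, the gene of CD23, at 753 ± 28.2 CPM in tatcre and 1152 ± 18.1 CPM in mock cells (SD, n = 3 each). Of 8 T cell markers, 7 (Cd3d, Cd3e, Cd3g, Cd4, Cd8a, Cd8b1 and Trac) stayed under 1 CPM in every library, while Thy1 was read at 109 ± 5.79 CPM in tatcre and 213 ± 24.9 CPM in mock cells. Of 8 macrophage and monocyte markers, C1qa, C1qb, C1qc and Fcgr1 had no count in any library, and Cd68 stood at 11.98 ± 1.88 CPM in tatcre and 24.2 ± 2.47 CPM in mock cells. Csf1r ran the other way, at 0.975 ± 0.532 CPM in tatcre and 0.239 ± 0.175 CPM in mock cells. Its groups overlapped and it had too few counts to be tested. Of 5 dendritic cell markers, Xcr1, Siglech and Itgax stayed under 1 CPM, while Flt3 was at 101 ± 2.61 CPM in tatcre and 120 ± 8.58 CPM in mock cells (SD, n = 3 each throughout). Thy1, Cd68 and Flt3 were called lower (edgeR adjusted p = 4.92e-05, 0.000327 and 0.0486).

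Transcripts of all 4 gamma genes and of Ighe were lower in tatcre cells, by 1.56-fold for Ighe to 11.4-fold for Ighg2b. Those of Ighm, Ighd and Igha did not pass the test. That makes 5 of 8 members lower and 0 higher by edgeR's quasi-likelihood test, with adjusted p under 0.05 as the threshold. At an unadjusted p under 0.05 the counts were 6 lower, with Ighd, and 1 higher, Ighm, and DESeq2 also called 1 member, Ighm, higher. No share over all genes is given here for unadjusted p or for DESeq2. The shares called that follow are at edgeR adjusted p under 0.05, so these counts cannot be set against them. Over all 15546 tested genes 16.3% were called lower and 10.8% higher, and among genes of mean log2 CPM of at least 6 the share called lower was 25.6%. Of all calls 60.2% were lower, a share that was 48.5% under upper-quartile scaling and 42% under library size alone. The median log2 fold change of the 8 members was -1.06, beside 0.02 over all tested genes. In the same 5 members every tatcre library lay below every mock library, which was true of 23.3% of tested genes. The exact permutation test over 3 against 3 libraries cannot give a two-sided p below 0.1, and it gave 0.1 for each of these 5.

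**Figure D1:**
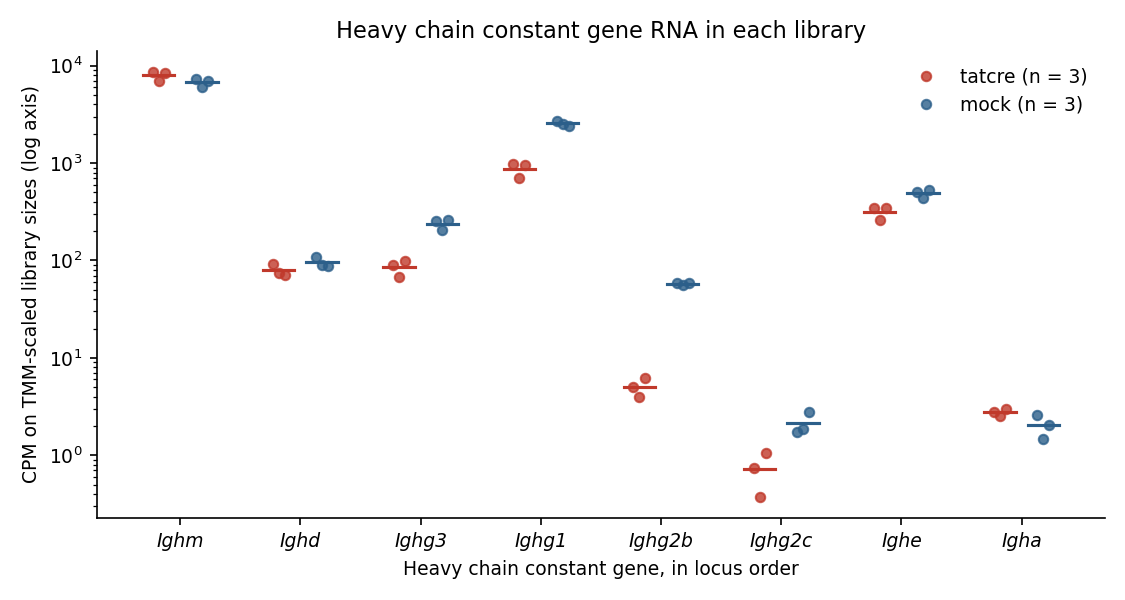
Level of each heavy chain constant gene in each library, in CPM on a log axis, with points for libraries (n = 3 a group) and lines for group means. The tatcre points of Ighg3, Ighg1, Ighg2b, Ighg2c and Ighe lie below all mock points, and those of Ighm, Ighd and Igha overlap with them.

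Ighm encodes the mu chain of IgM. Its level was 8629, 6956 and 8402 CPM in tatcre libraries 1 to 3, against 7304, 5988 and 6972 CPM in mock libraries 1 to 3. The groups overlapped, since tatcre 2 lay below mock 1 and mock 3. The means were 7996 ± 908 CPM in tatcre and 6754 ± 684 CPM in mock cells (SD, n = 3 each), with a log2 fold change of 0.24 (SE 0.10, 95% interval 0.03 to 0.45, edgeR adjusted p = 0.0819). The call depended on the fit. Ighm passed the threshold under upper-quartile scaling (log2 fold change 0.31), library size alone (0.35), no filter on low counts (0.21) and DESeq2 (0.25), with adjusted p from 0.0196 to 0.0495. It also passed without mock 1 (0.30, edgeR adjusted p = 0.0485) or without tatcre 2 (0.33, edgeR adjusted p = 0.0128). The fit with no filter on low counts gave Ighg2b an edgeR adjusted p of 1.73e-158, against 1.34e-07 in the main fit at nearly the same fold change. Its adjusted p are thus on another scale, and calls that rest on it carry less weight.

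Ighd encodes the delta chain of IgD. It stood at 92.7, 73.7 and 70.8 CPM in tatcre libraries and at 109.6, 89.6 and 87.4 CPM in mock libraries. The groups overlapped only through tatcre 1, which lay above mock 2 and mock 3. Its log2 fold change of -0.27 (SE 0.12) was not called (edgeR adjusted p = 0.121). It was called lower without tatcre 1 (log2 fold change -0.41, edgeR adjusted p = 0.0377) and with no filter on low counts (-0.30, edgeR adjusted p = 0.0124). The latter fit carries the limit given for Ighm.

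Ighg1 encodes the heavy chain of IgG1, the class that LPS with IL-4 favours among the gammas. Its level was 971, 698 and 958 CPM in tatcre libraries, against 2737, 2530 and 2406 CPM in mock libraries. The highest tatcre library thus lay far below the lowest mock library. Its level was 2.92-fold lower (log2 fold change -1.55, SE 0.12; edgeR adjusted p = 8.61e-06).

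Ighg3, the gamma gene nearest to Ighm, had 90.7, 68.1 and 98.1 CPM in tatcre and 255, 204 and 260.2 CPM in mock libraries. The groups did not overlap, and the change, -1.48 on the log2 scale (SE 0.14; edgeR adjusted p = 3.42e-05), was close to that of Ighg1.

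Ighg2b, whose germline transcription LPS favours, had the largest fold change of the 8. The counts were 122, 96 and 154 in tatcre libraries and 1538, 1507 and 1381 in mock libraries. On the scaled level these came to 5.002, 4.01 and 6.17 CPM in tatcre and 58.1, 55.8 and 58.8 CPM in mock libraries. The mock libraries were tightly grouped, with a coefficient of variation of 2.69%, and no tatcre library came near them. The log2 fold change was -3.50 (SE 0.14, edgeR adjusted p = 1.34e-07), and it placed Ighg2b at rank 27 from the lowest among the 15546 tested genes.

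Ighg2c, the gamma 2 gene of C57BL/6 mice that takes the place of Ighg2a, had few counts in every library. There were 18, 9 and 26 in tatcre libraries, and 46, 50 and 65 counts in mock libraries. Counting error alone allows 4.12 to 17.1 for the count of 9 and 50.2 to 82.8 for the count of 65 (95% exact Poisson intervals, counting error only). Its estimate of -1.55 on the log2 scale carried a large error (SE 0.44; edgeR adjusted p = 0.0241), and the call was lost without mock 2, mock 3, tatcre 1 or tatcre 2 (log2 fold changes -1.65, -1.33, -1.58 and -1.24; edgeR adjusted p = 0.0603, 0.0612, 0.0666 and 0.0544). Its counts are few beside those of Ighg1, a close relative with which it could share reads.

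Ighe encodes the heavy chain of IgE. Its level was 345, 259 and 346 CPM in tatcre libraries and 506, 440 and 535 CPM in mock libraries. The groups did not overlap. The level was 1.56-fold lower (log2 fold change -0.64, SE 0.12; edgeR adjusted p = 0.0024).

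Igha encodes the heavy chain of IgA. It had 68, 61 and 75 counts in tatcre and 69, 40 and 48 counts in mock libraries. The groups overlapped through mock 1. The log2 fold change of 0.44 (95% interval -0.20 to 1.08) was not called (edgeR adjusted p = 0.28).

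The ratio of each gene to Ighm within a library does not depend on how libraries are scaled. Ratios were tested in edgeR with the Ighm count of each library in place of its size. Ighd and the 5 members named above as lower in level were lower relative to Ighm, and Igha was not called. Over all genes in that fit 23.2% were called lower and 3.57% higher. The swing of Ighm between libraries enters every gene of that fit at once, so its p-values are too small. The values per library and their SD are the better guide to the replicate error, and the exact permutation p was 0.1, the smallest possible, for each of these 6.

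Ighg1 had 11.2, 10.0 and 11.4 counts per 100 Ighm counts in tatcre libraries, against 37.5, 42.2 and 34.5 in mock libraries. All tatcre libraries thus lay within a narrow band far below the lowest mock value. The mean ratio was 10.9 ± 0.748 in tatcre and 38.1 ± 3.91 in mock cells (SD, n = 3 each), with a log2 change of -1.81 (SE 0.16). Ighg3 behaved alike in size, with 1.07 ± 0.0951 counts per 100 Ighm counts in tatcre cells and 3.54 ± 0.171 in mock cells, a log2 change of -1.73 (SE 0.17).

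Ighg2b had 0.580, 0.576 and 0.735 counts per 1000 Ighm counts in tatcre libraries and 7.96, 9.33 and 8.44 in mock libraries. This was the largest change among the 7 ratios to Ighm, at -3.76 on the log2 scale (SE 0.19). Ighg2c gave 8.55, 5.40 and 12.4 counts per 100000 Ighm counts in tatcre libraries and 23.8, 30.9 and 39.7 in mock libraries. The groups did not overlap, but tatcre libraries differed among themselves more than for any other member, and the log2 change of -1.82 had an SE of 0.49 (edgeR adjusted p = 0.00385).

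Ighe had 3.999, 3.72 and 4.12 counts per 100 Ighm counts in tatcre libraries, against 6.93, 7.34 and 7.67 in mock libraries. The log2 change was -0.89 (SE 0.17, edgeR adjusted p = 5.57e-05). Igha had 32.3, 36.6 and 35.8 counts per 100000 Ighm counts in tatcre libraries and 35.7, 24.8 and 29.3 in mock libraries. These overlapped, and the log2 change of 0.22 had a 95% interval from -0.48 to 0.92 (edgeR adjusted p = 0.676).

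**Figure D2:**
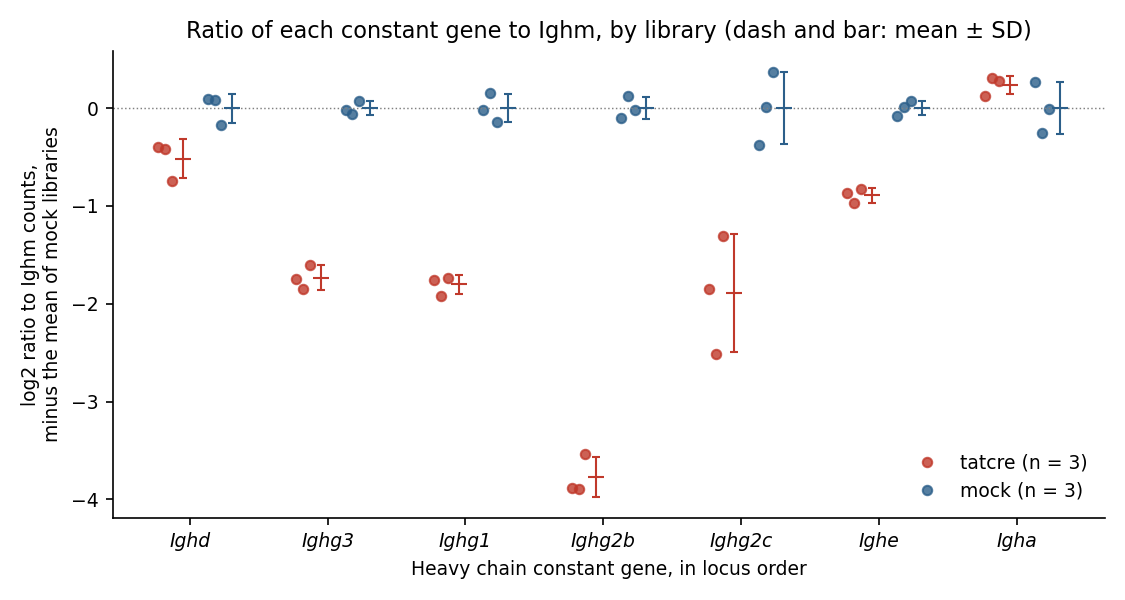
Log2 ratio of the counts of each constant gene to Ighm counts in each library, set to 0 at the mean of the mock libraries, with points for libraries and dashes with bars for mean ± SD (n = 3 a group). The tatcre points of Ighg2b lie lowest, around -3.77, those of Ighg3 and Ighg1 lie near each other, those of Ighe lie closer to mock, and those of Igha overlap with mock.

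The balance between delta and mu transcripts shifted as well. Ighd had 1.07, 1.06 and 0.843 counts per 100 Ighm counts in tatcre libraries and 1.501, 1.496 and 1.25 in mock libraries. No tatcre library reached the lowest mock library. The log2 change was -0.51 (SE 0.17, edgeR adjusted p = 0.0222), and the call was lost without mock 1, mock 2, tatcre 1 or tatcre 3 (log2 changes -0.47, -0.47, -0.57 and -0.41; edgeR adjusted p = 0.056, 0.0709, 0.0544 and 0.195).

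The switched genes did not all change to the same degree. This was tested with the Ighg1 count of each library in place of the library size, a fit in which 93.1% of all genes were called higher and 0.502% lower, since Ighg1 itself fell. Relative to Ighg1, Ighg2b was lower and Ighe higher, and Ighg3 and Ighg2c were not called. Ighg2b had 0.515, 0.574 and 0.645 counts per 100 Ighg1 counts in tatcre libraries, against 2.12, 2.21 and 2.44 in mock libraries. Its log2 change against Ighg1 was -1.96 (SE 0.18, edgeR adjusted p = 2.19e-07), so its fall was larger than that of Ighg1 by more than the replicate error. The p-values of this fit carry the same limit as those of the ratios to Ighm.

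Ighe had 35.6, 37.1 and 36.1 counts per 100 Ighg1 counts in tatcre libraries and 18.5, 17.4 and 22.2 in mock libraries. The tatcre libraries lay close together (coefficient of variation 2.09%), all above the mock libraries. The log2 change was 0.90 (SE 0.17, edgeR adjusted p = 0.000114), so the 2 classes that IL-4 favours fell by unequal amounts.

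Ighg3 had 9.35, 9.76 and 10.2 counts per 100 Ighg1 counts in tatcre libraries, against 9.33, 8.05 and 10.8 in mock libraries. These ratios overlapped, and the log2 change of 0.06 had a 95% interval from -0.31 to 0.43 (edgeR adjusted p = 0.745), which turned to -0.04 without mock 2. For Ighg2c the log2 change against Ighg1 was -0.06, with a 95% interval from -1.04 to 0.93 (edgeR adjusted p = 0.906), and it turned to 0.23 without mock 3 and to 0.15 without tatcre 2. In order of their change in level, from the largest fall, the members ran Ighg2b, then Ighg2c, Ighg1 and Ighg3, then Ighe, Ighd, Ighm and Igha. Neither Ighg3 nor Ighg2c differed from Ighg1 beyond the error in these fits, while Ighg2b and Ighe both did. The steps from Ighg2b to Ighg2c, from Ighg3 to Ighe and from Ighe to Ighd were not tested.

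The summed counts of the 8 genes show the same shift as a composition. Ighm held 85.1, 86.3 and 85.0% of them in tatcre libraries, against 66.6, 64.3 and 67.5% in mock libraries. The tatcre mean was higher by 19.3 percentage points, with SDs of 0.709 in tatcre and 1.65 in mock libraries (n = 3 each), and the exact permutation p was 0.1, the smallest possible. The 6 genes beyond Ighd together held 14.0, 12.8 and 14.3% in tatcre and 32.4, 34.7 and 31.6% in mock libraries. Counting error is small beside these differences, since the 95% exact binomial (Clopper-Pearson) intervals of these shares reach at most 0.188 percentage points to either side, counting error only.

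Within those 6 genes the makeup also differed. Ighg1 held 68.6, 67.7 and 67.8% of their counts in tatcre libraries and 76.9, 78.3 and 73.7% in mock libraries. Lower shares of Ighg1 went with higher shares of Ighe. Ighe held 24.4, 25.1 and 24.5% in tatcre libraries and 14.2, 13.6 and 16.4% in mock libraries. Ighg2b held 0.354, 0.389 and 0.437% in tatcre libraries and 1.63, 1.73 and 1.80% in mock libraries. Igha held 0.197, 0.247 and 0.213% in tatcre libraries and 0.0732, 0.0459 and 0.0626% in mock libraries. None of these 4 shares overlapped between groups, and Ighe and Igha took the larger share in tatcre libraries, while those of Ighg3 and Ighg2c overlapped. The shares of a library have a fixed sum, so a fall of Ighg1, the largest, raises those of genes that fell less. In level Ighe was lower, so its larger share is no gain of transcripts. Igha was not called in level, at a log2 fold change of 0.44. The interval given for it above, -0.20 to 1.08, holds both a fall and a rise. A gain of Igha transcripts was therefore neither shown nor excluded. These shares are of reads and not of molecules, as the counts are not divided by transcript length.

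**Figure D3:**
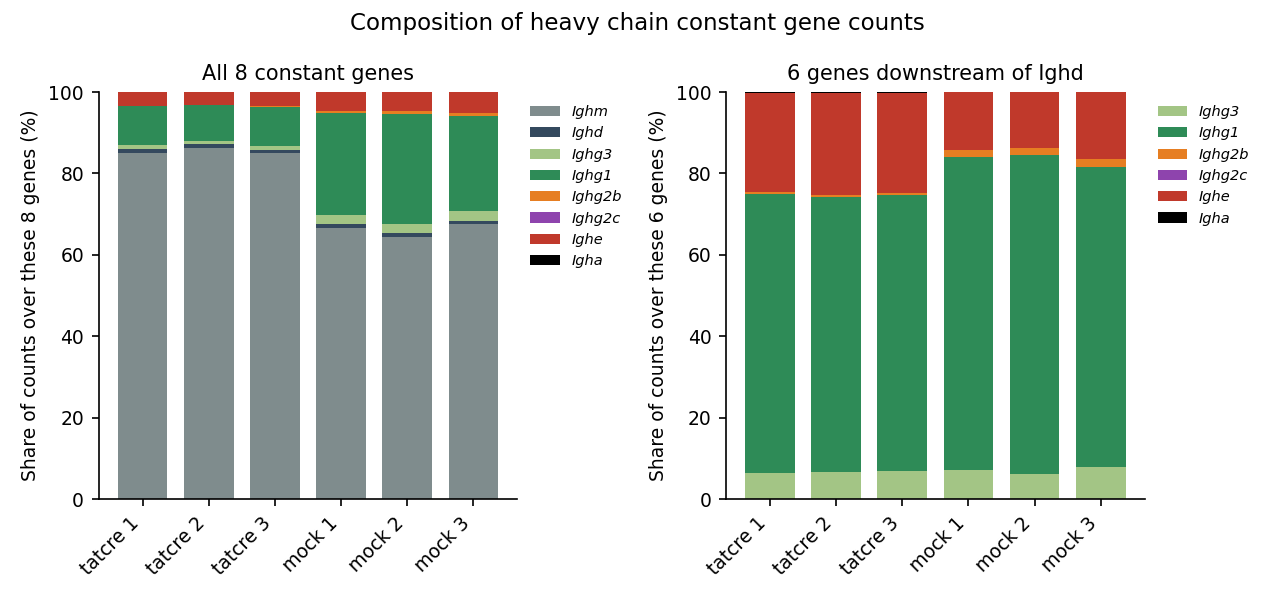
Share of the counts of each library over all 8 constant genes (left) and over the 6 genes downstream of Ighd (right), as stacked bars for tatcre 1 to 3 and mock 1 to 3. Ighm fills 85.0 to 86.3% of the bars of tatcre libraries and 64.3 to 67.5% of those of mock libraries on the left, and Ighe fills a larger part of the tatcre bars on the right.

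The total of heavy chain constant RNA, in contrast to its makeup, overlapped between the groups. The sum of the 8 genes was 10137, 8061 and 9885 CPM in tatcre libraries and 10974, 9309 and 10324 CPM in mock libraries. Set against Igkc, the kappa light chain constant gene, it came to 89.0, 96.9 and 93.8 counts per 100 Igkc counts in tatcre libraries and 89.2, 98.5 and 96.3 in mock libraries. The means were 93.2 ± 3.98 in tatcre and 94.7 ± 4.89 in mock cells (SD, n = 3 each; exact permutation p = 0.7). Ighm alone had 75.8, 83.6 and 79.7 counts per 100 Igkc counts in tatcre libraries, above the 59.3, 63.4 and 65.0 of mock libraries (exact permutation p = 0.1, the smallest possible). In the fit with Igkc as the offset, a scaling chosen after seeing the data, the log2 change of Ighm was 0.35 (SE 0.19) and was not called (edgeR adjusted p = 0.208). The same ratio turned round, Igkc with Ighm as the offset, gave -0.35 (SE 0.13) and was called (edgeR adjusted p = 0.0487), so the call depends on which gene serves as the offset.

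Light chain constant genes and receptor partners gave no change of the size seen for the gamma genes. Of 7 tested genes 2 were lower, 0 were higher and 5 were not called, with a median log2 fold change of -0.10. That is 28.6% lower, beside 16.3% of all tested genes and 25.6% of those of mean log2 CPM of at least 6. Over all tested genes 10.8% were called higher, so these counts set the list little apart. Under upper-quartile scaling and under library size alone, 1 of the 7 was lower and 1 higher. Cd79a and Cd79b, which encode the signalling chains of the B cell receptor, had log2 fold changes of -0.32 and 0.19 (edgeR adjusted p = 0.127 and 0.111). Iglc1, a lambda constant gene, fell to 48.7, 47.6 and 46.4 CPM in tatcre libraries, against 78.6, 74.8 and 63.5 CPM in mock libraries (log2 fold change -0.60, edgeR adjusted p = 0.000901). The lambda genes are close copies, so this value is uncertain. Jchain, which encodes the chain that links IgM and IgA into polymers, averaged 87.8 ± 10.7 CPM in tatcre and 122.5 ± 24.6 CPM in mock cells (SD, n = 3 each; edgeR adjusted p = 0.0295), with groups that overlapped. Igkc, at -0.10 on the log2 scale, did not pass (edgeR adjusted p = 0.544). Iglc4, a lambda pseudogene, had 10, 9 and 6 counts in tatcre and 5, 6 and 2 counts in mock libraries and could not be tested. With Igkc counts as the offset the 4 gamma genes were called lower, while Ighe at -0.55 was not called (edgeR adjusted p = 0.0798). In that fit 5.44% of all genes were called lower and 8.65% higher.

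The changes along the locus were set beside those of its neighbours. On the far side of Igha, 12 genes at 233 to 554 kb from the upper end of Ighm were listed, and 10 of them could be tested. Of these 1 was lower, 0 were higher and 9 were not called, with a median log2 fold change of -0.08. That is 10% lower, beside 16.3% of all tested genes, of which 10.8% were called higher. So few calls set the flanking genes little apart. Mta1, a chromatin regulator and the most read of them, averaged 136 ± 18.4 CPM in tatcre and 158 ± 17.4 CPM in mock cells (SD, n = 3 each; edgeR adjusted p = 0.169). Btbd6 was the exception, with 49, 23 and 30 counts in tatcre and 97, 92 and 79 counts in mock libraries (log2 fold change -1.32, SE 0.32, edgeR adjusted p = 0.0102). It lies within the span of Brf1, which stood at -0.03 on the log2 scale (edgeR adjusted p = 0.846), and the strand setting of the counting is not known, so reads of that pair could be mixed. Inside the locus, between Ighd and Ighg3, lies the annotated pseudogene Gm9134 (113379513 to 113381622), looked up after the values were seen. It had 515, 555 and 587 counts in tatcre and 488, 626 and 512 counts in mock libraries, and its log2 fold change of 0.10 did not pass (edgeR adjusted p = 0.549).

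**Figure D4:**
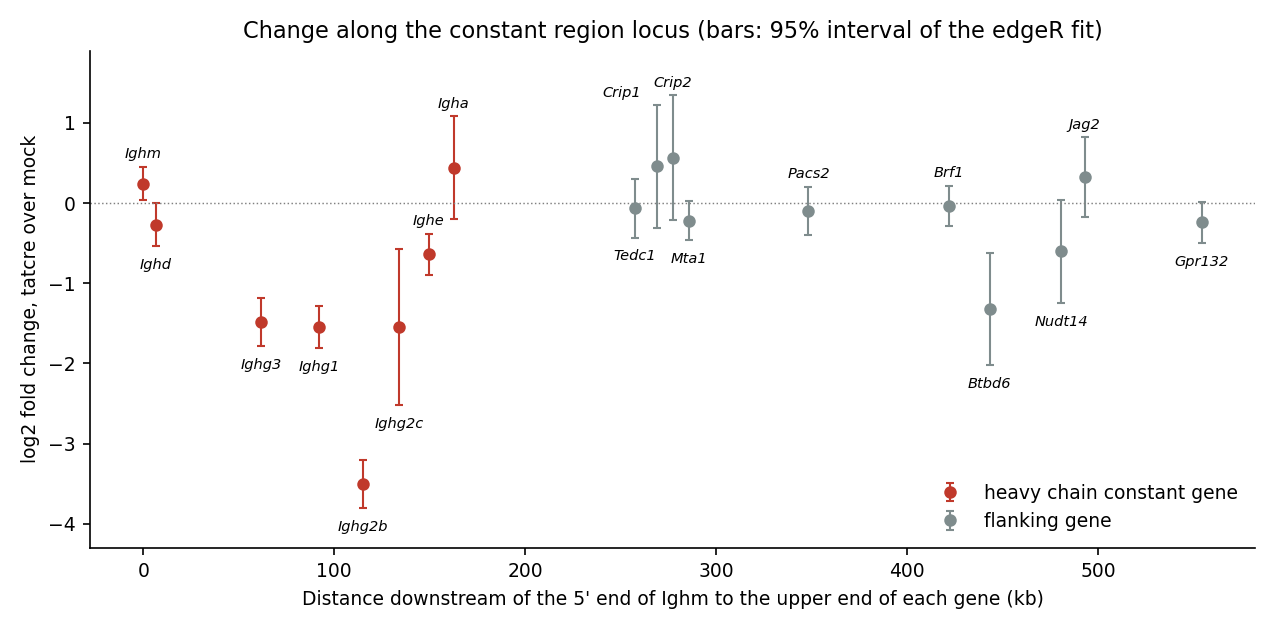
Log2 fold change of tatcre over mock for the 8 constant genes and the 10 tested flanking genes, against the distance in kb from the upper end of Ighm, with bars for the 95% interval of the edgeR fit. The changes fall to -3.50 at Ighg2b, and are not called at Ighm, Ighd, Igha and 9 of the 10 flanking genes.

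Upstream of Ighm lie the joining segments Ighj1, Ighj2, Ighj3 and Ighj4, one of which each rearranged heavy chain gene uses. Ighj2 and Ighj4 could be tested, and neither was called. Ighj2 had 256, 309 and 357 counts in tatcre and 190, 246 and 310 counts in mock libraries (log2 fold change 0.36, edgeR adjusted p = 0.222), and these overlapped. The counts of Ighj1 ranged from 0 to 5 over the libraries, and those of Ighj3 ran between 4 and 14, so neither was tested.

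Of 16 listed genes that act on heavy chain RNA 3 were lower, 3 higher and 10 not called. The share called lower, 18.8%, was near the 16.3% of all tested genes, and 18.8% were called higher, beside 10.8% of all, so the counts set the list little apart. With library size alone they were 2 lower and 4 higher. Zfp318, a zinc finger gene needed for Ighd transcripts in mouse B cells, had the smallest adjusted p of the list. It had 50.7, 48.3 and 50.7 CPM in tatcre libraries, against 90.9, 88.8 and 93.4 CPM in mock libraries, with groups far apart. The log2 fold change was -0.87 (SE 0.08, edgeR adjusted p = 2.2e-05). Pcf11, a factor of transcript cleavage and termination, and Ptbp1, a splicing regulator, were also lower (log2 fold changes -0.37 and -0.29; edgeR adjusted p = 0.00842 and 0.0151). Hnrnpll, an RNA-binding splicing regulator, was higher, at 17.5, 16.2 and 18.3 CPM in tatcre and 9.22, 9.41 and 11.97 CPM in mock libraries (log2 fold change 0.77, edgeR adjusted p = 0.0016). Cpsf2 and Cstf2t, which encode parts of the polyadenylation machinery, were higher too (log2 fold changes 0.46 and 0.44; edgeR adjusted p = 0.00192 and 0.00573). Ell2, an elongation factor that favours the secreted form in plasma cells, was not called (log2 fold change 0.05).

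Of 37 tested genes that feed germline transcription and switching 13 were lower, 3 higher and 21 not called, with a median log2 fold change of -0.235. That is 35.1% lower and 8.11% higher, beside 16.3% and 10.8% of all tested genes, and 25.6% and 10.3% of those of mean log2 CPM of at least 6. The split was 10 lower and 5 higher under upper-quartile scaling, and 9 lower and 5 higher with library size alone. Those splits of the list were added after seeing the data. No called gene of the list had a log2 change as large as those of the gamma genes. Tcf4, an E protein transcription factor, averaged 158 ± 4.15 CPM in tatcre and 233 ± 24.4 CPM in mock cells (SD, n = 3 each; log2 fold change -0.57, edgeR adjusted p = 0.000844). Batf, an AP-1 family factor required for germline transcription and for AID expression in mouse B cells, averaged 212 ± 14.4 CPM in tatcre and 301 ± 15.5 CPM in mock cells (log2 fold change -0.50, edgeR adjusted p = 0.00101), and Irf4 had a log2 fold change of -0.43 (edgeR adjusted p = 0.00137). The kinase gene Jak3, the TGF-beta mediator Smad3 and the LPS receptor Tlr4 were higher (log2 fold changes 0.43, 0.45 and 0.82; edgeR adjusted p = 0.00518, 0.00644 and 0.0298). Stat6, through which IL-4 acts on the Ighg1 and Ighe promoters, was not called, at 148 ± 8.38 CPM in tatcre and 152 ± 4.56 CPM in mock cells. Stat6 was chosen after its value was seen.

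Markers of other B cell states moved with the constant genes, and their part in the result was not tested. Beside the counts below, 16.3% of all tested genes were called lower, and 25.6% of those of mean log2 CPM of at least 6. The summed level of 8 plasma cell markers was 477 to 573 CPM in tatcre and 599 to 675 CPM in mock libraries, with 2 of 7 tested genes lower. Marginal zone markers summed to 65.7 to 74.9 CPM in tatcre and 77.6 to 95.7 CPM in mock libraries, and 2 of 6 were lower. The sums of 5 B-1 cell markers were 347 to 368 CPM in tatcre and 377 to 381 CPM in mock libraries, with 1 of 5 lower. Germinal centre and memory markers summed to 687 to 759.5 CPM in tatcre and 894 to 954 CPM in mock libraries, with 3 of 7 lower. The T cell list summed to 105 to 116.5 CPM in tatcre and 190.0 to 240 CPM in mock libraries, nearly all from Thy1, as its other 7 genes are those named above as under 1 CPM. Tnfrsf17 of plasma cells, Cd5 of B-1 cells and S1pr2 of germinal centre cells also stayed under 1 CPM in every library. The macrophage and monocyte list summed to 11.9 to 15.4 CPM in tatcre and 22.1 to 27.6 CPM in mock libraries, and the dendritic cell list to 106 to 113 CPM in tatcre and 120 to 134 CPM in mock libraries. Most of the former came from Cd68 and most of the latter from Flt3. None of the sums above overlapped between groups. Of single tested genes, 23.3% had every tatcre library below every mock library, and 20.6% had every tatcre library above. No marker was called higher, yet not all ran with the sums. Plscr1 and Bhlhe41 of B-1 cells and Gcsam of germinal centre cells were above all mock libraries in every tatcre library, with log2 fold changes of 0.22, 0.24 and 0.60 that did not pass (edgeR adjusted p = 0.0832, 0.0725 and 0.331). The follicular list summed to 4483 to 4545 CPM in tatcre and 5419 to 5725 CPM in mock libraries.

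The genes whose profile over the 6 libraries was most like that of a member were taken by the root mean square difference of log2 CPM, each profile centred on its own mean. Among 8967 candidate genes outside the immunoglobulin loci, Ttyh3, Grhpr and Asrgl1 were nearest to Ighg1, with differences of 0.08, 0.10 and 0.10. Nearest to Ighg2b were Dtx3 at 0.11, Hsd17b10 at 0.25 and Fam234b at 0.26, all of which had log2 fold changes between -3.60 and -3.36. Nearest to Ighm were Polg, Eif2ak3 and Cacna1b, at 0.04, 0.04 and 0.05. For Ighg1 and Ighg2b all 6 points share a large difference between groups, which any gene with a like fold change also has.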

How the data were processed

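RNA was measured in 3 tatcre and 3 mock libraries. The RNA files, as deposited, give whole raw counts for each Ensembl gene ID. The submitters' processing notes list the tools Trimmomatic, TopHat2, HTSeq, SAMtools and MACS2, with no version, and the build mm10; per the labels' protocols the RNA kit was stranded. Not given in the sources used here are the counter's strand setting, the annotation and how multiply placed reads were treated. Peak lists of YY1 were not used here. Of 48795 gene IDs 48349 had a symbol, and coordinates are RefSeq's on GRCm38. No sequence table used here held the constant genes, so no sequence is printed.

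Genes were kept with filterByExpr (minimum count 10, minimum total 15), scaled by TMM and tested in edgeR 4.0.16 under R 4.3.3 by quasi-likelihood. Benjamini-Hochberg adjustment ran over all 15546 tested genes, with a threshold of 0.05. CPM values use TMM-scaled library sizes, and fold changes are tatcre over mock. Ratios were fitted on the same genes with the log count of Ighm, Ighg1 or Igkc as the offset. Exact permutation tests and intervals used scipy 1.17.1. A floor of 3 counts, which is 0.111 to 0.128 CPM here, was worked out for reference only. It was not applied, and genes with no count stand at 0 CPM. Alternatives were RLE, upper-quartile and no scaling factors, scaling without immunoglobulin genes, no filter, DESeq2 1.42.0, a replicate block and leaving out each library.

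The text names Yy1, the 8 members, up to 3 called genes of smallest adjusted p per direction of each context list, any gene of the light chain, flanking and joining lists, and the 3 genes of mean log2 CPM of at least 2 most like Ighg1, Ighg2b and Ighm. Other list members were named after their values were seen. The members and lists were chosen with earlier results of these data known.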

Additional observations from a re-analysis of the deposited data

How the results depend on the processing

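Each alternative kept the direction of all 8 level changes, and Ighg3, Ighg1 and Ighg2b were called lower under every one, with log2 fold changes of -1.60 to -1.34, -1.64 to -1.41 and -3.68 to -3.36 without each library in turn. The number of members called lower was 5 or 6 under other settings and 4 to 5 without each library. One member, Ighm, was called higher (a count of 1, against 0 as reported) with upper-quartile factors (log2 fold change 0.31), library size alone (0.35), no low-count filter (0.21), DESeq2 (0.25) and the replicate block (0.24, edgeR adjusted p = 0.0179). Without each library in turn the count called higher was 0 to 1, and Ighm ranged from 0.16 to 0.33. Under library size alone the median over all genes moved by 0.10 (log2), and Ighm lay 0.22 above that median under both scalings. Of all calls 60.2% were lower with TMM, 48.5% with upper-quartile factors and 42% with library size alone. Ighd was called lower without the low-count filter (-0.30) and ranged from -0.41 to -0.17 without each library. Without that filter the adjusted p of every member but Igha was smaller than in the main fit. Ighg2c ranged from -1.93 to -1.24 and Ighe from -0.73 to -0.51 without each library. With Igkc as the offset Ighe was at -0.55 and not called. The ratio of Ighd to Ighm ranged from -0.59 to -0.41 without each library, that of Ighg3 to Ighg1 from -0.04113 to 0.17 and that of Ighg2c to Ighg1 from -0.35 to 0.23. The causes of these shifts were not tested.

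Between same-numbered tatcre and mock libraries, deviations from the group means correlated at 0.06, -0.03 and 0.23, which is not over 0.1 for every pair, so the block was kept as an alternative. Whether equal numbers mark the same mouse is not known. With the replicate block 5 members were called lower, and Ighm was the only one of the 8 level calls that changed. Lengths of the transcripts were not available, so the share of Ighm per length was not run. Depth limits Ighg2c and Igha, which had at most 75 counts in any library.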
